A study of Mus musculus with 69 samples.

Results

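Nodal, Gdf3, Tdgf1, Acvr2b, Lefty1, Lefty2, Cer1 and Foxh1 are 8 genes of the Nodal signalling pathway, taken by symbol from the 55367 gene symbols counted in a bulk RNA sequencing series on mosaic gastruloids. The series asked how cells without p53 affect their wild-type (WT) neighbours during early mouse development. It holds 69 libraries, 3 from each of 23 conditions, made from clones of the mouse embryonic stem (mES) cell line E14Tg2A. Gastruloids are aggregates of mES cells that pass through stages around gastrulation in culture.

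All the clones carried a nuclear fluorescent label made of the histone H2B. The WT–mCherry clone expressed H2B–mCherry from an EF1α promoter and the WT–emiRFP clone H2B–emiRFP670 from a CAG promoter. The p53KO–emiRFP cells were 1 daughter clone of WT–emiRFP cells with a homozygous frameshift in Trp53. At 0 h the 3 clones were sampled as separate mES cell cultures. At 48, 72, 96, 120 and 144 h after aggregation, cells were sorted by colour from pooled mosaic gastruloids of WT–mCherry with WT–emiRFP cells (WT + WT) or of WT–mCherry with p53KO–emiRFP cells (WT + p53KO). All gastruloids were treated with a Wnt agonist from 48 to 72 h. Fewer p53KO–emiRFP than WT–emiRFP cells were seeded, and each genotype was a single clone, so that genotype, clone, seeding number and neighbourhood cannot be told apart when p53KO–emiRFP cells are compared with WT–emiRFP cells of gastruloids. At 0 h only genotype and clone cannot be told apart. Replicates came from separate experiments according to the study's methods. A bulk library cannot separate fewer cells of one type from less RNA per cell.

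Nodal is a secreted ligand of the TGFβ family that keeps the epiblast of the early embryo patterned and induces mesoderm and endoderm at the primitive streak. It binds activin receptors, among them the type II receptor Acvr2b, together with the co-receptor Tdgf1, also known as Cripto, and it can act as a heterodimer with Gdf3 or Gdf1. The activated receptors phosphorylate Smad2 and Smad3, which enter the nucleus with Smad4 and bind DNA beside the forkhead factor Foxh1. Among the targets are Nodal itself and the secreted inhibitors Lefty1 and Lefty2, which makes the pathway both self-activating and self-limiting. Cer1 is a secreted antagonist of Nodal and BMP ligands, expressed in anterior endoderm and in forming somites of the embryo.

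The Lefty genes are neighbours on chromosome 1 and share much of their coding sequence, which bears on how their counts can be told apart. In the GRCm38 annotation Lefty1 (ENSMUSG00000038793.8) lies at chr1:180935022-180938400 and Lefty2 (ENSMUSG00000066652.5) at chr1:180893108-180899103, both on the plus strand and both with 4 exons. Their coding sequences were identical at 1014 of 1104 aligned bases, or 91.8%, with 77.6% in the first exon and 98.0% in the third. A read that lies wholly where the 2 transcripts do not differ has more than 1 place in the genome and is not among the uniquely mapped reads that were counted. Of all 100-base words in its transcripts, Lefty1 shared 5.85% with Lefty2, and Lefty2 shared 3.87% with Lefty1. Tdgf1 shared 3.17% with its pseudogene Tdgf1-ps1, and the other 5 genes shared none with another gene.

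Nodal and Cer1 moved in opposite directions in p53KO–emiRFP cells, so their promoters are shown side by side. RefSeq windows from 250 bases before to 50 after the start of transcription on GRCm38.p6 were found for 4 of the 8 genes (Nodal, Cer1, Tdgf1 and Acvr2b). Capitals mark CAGAC, the short element that Smad proteins bind, on either strand.
Nodal, chr10:61417722-61418021, plus strand: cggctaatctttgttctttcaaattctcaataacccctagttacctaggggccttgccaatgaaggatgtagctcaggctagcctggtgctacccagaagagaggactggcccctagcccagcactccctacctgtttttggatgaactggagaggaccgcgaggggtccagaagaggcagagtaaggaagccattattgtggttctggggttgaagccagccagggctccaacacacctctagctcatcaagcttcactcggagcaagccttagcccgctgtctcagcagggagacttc
Cer1, chr4:82885102-82885401, minus strand: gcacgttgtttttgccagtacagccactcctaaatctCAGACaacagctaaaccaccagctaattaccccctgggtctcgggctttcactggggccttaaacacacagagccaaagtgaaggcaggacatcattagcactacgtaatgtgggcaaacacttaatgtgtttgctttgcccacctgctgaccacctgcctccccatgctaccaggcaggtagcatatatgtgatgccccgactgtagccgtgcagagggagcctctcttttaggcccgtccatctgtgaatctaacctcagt
The Cer1, Tdgf1 and Acvr2b windows held 1 CAGAC each and the Nodal window held 0, while 49.6% of all 32851 promoter windows held at least 1. The Foxh1 motif AATCCACA, in 0.855% of all windows, and the palindrome GTCTAGAC, in 0.213%, were in none of the 4. These matches describe the letters of a 300-base window and say nothing about binding.

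Library totals ranged from 26722541 to 72981570 counts with a median of 53098728. Values below are normalized counts, the raw counts divided by a median-of-ratios size factor, unless a length scale is named. Trp53, the targeted gene, averaged 1621 to 2484 normalized counts in the p53KO–emiRFP conditions and 14610.5 to 25497 in the WT conditions, and every p53KO–emiRFP library was lower than every WT library. The histone gene H2bc14 had 7.24 ± 1.01 normalized counts in WT–mCherry mES cells and 9940.5 ± 582 in WT–emiRFP mES cells (SD, n = 3 each), which allowed an estimate of RNA from emiRFP cells in sorted WT–mCherry libraries. That share was at most 2.01% beside WT cells. Beside p53KO–emiRFP cells it was at most 3.49% up to 96 h, then 7.35%, 2.91% and 6.55% at 120 h and 16.8%, 2.26% and 9.10% at 144 h. The naive pluripotency markers Klf4, Esrrb, Zfp42, Tfcp2l1 and Nanog summed to between 150221 and 186153 in the mES cell libraries, so the label of these cultures was borne by their defining genes.

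On GRCm38 the other 6 genes lie on 5 chromosomes. The ligand genes are Nodal (ENSMUSG00000037171.6, chr10:61417972-61425338, plus strand) and Gdf3 (ENSMUSG00000030117.5, chr6:122605403-122610087, minus strand). Chromosome 9 holds both the co-receptor gene Tdgf1 (ENSMUSG00000032494.12, chr9:110939603-110946158, minus strand) and the receptor gene Acvr2b (ENSMUSG00000061393.14, chr9:119402118-119434995, plus strand). Cer1 (ENSMUSG00000038192.5, chr4:82881751-82885148) and Foxh1 (ENSMUSG00000033837.5, chr15:76668225-76669948) are both on the minus strand. No exon of a member overlapped an exon of another gene.

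Of the 8 genes, 7 were well detected in every one of the 69 libraries, the lowest value among them being 411 normalized counts of Gdf3. Cer1 was the exception, with a median of 3.53 normalized counts, a highest value of 1105, and at most 3 counts in 34 libraries. The span between the condition with the highest mean and that with the lowest was 26.8-fold for Tdgf1, 16.1-fold for Lefty2, 12.4-fold for Gdf3, 11.5-fold for Lefty1, 11.2-fold for Nodal, 5.56-fold for Foxh1 and 2.48-fold for Acvr2b. The lowest condition was p53KO–emiRFP cells at 144 h for Nodal, Gdf3, Lefty1, Lefty2 and Foxh1, and p53KO–emiRFP cells at 120 h for Tdgf1. For Acvr2b that last condition was instead the highest. When the 23 conditions were ordered by mean, libraries of neighbouring conditions overlapped in 17 of 22 neighbour pairs for Nodal, 15 for Gdf3, 16 for Tdgf1, 21 for Acvr2b, 18 for Lefty1, 16 for Lefty2, 20 for Cer1 and 21 for Foxh1, so that most single steps in these orders were within the spread of libraries.

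Per kb of exonic sequence, a scale that allows genes to be compared, WT–emiRFP mES cells had 18670.0 normalized counts of Tdgf1, 6319 of Lefty1, 3028 of Lefty2, 3006 of Nodal, 2417 of Gdf3, 1846 of Foxh1, 526 of Acvr2b and 0.819 of Cer1. The co-receptor was thus the most abundant of these RNAs in mES cells. At 72 h in the same clone Lefty1 was the most abundant with 9618 per kb, followed by Foxh1 with 3375 and Nodal with 3156. In p53KO–emiRFP cells at 144 h the receptor Acvr2b, with 1092 per kb, had the highest level of the 8, and Nodal had 281. Dividing by the length of the longest transcript in place of the exonic length left Acvr2b first in that condition, at 1351 per kb.

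**Figure D1:**
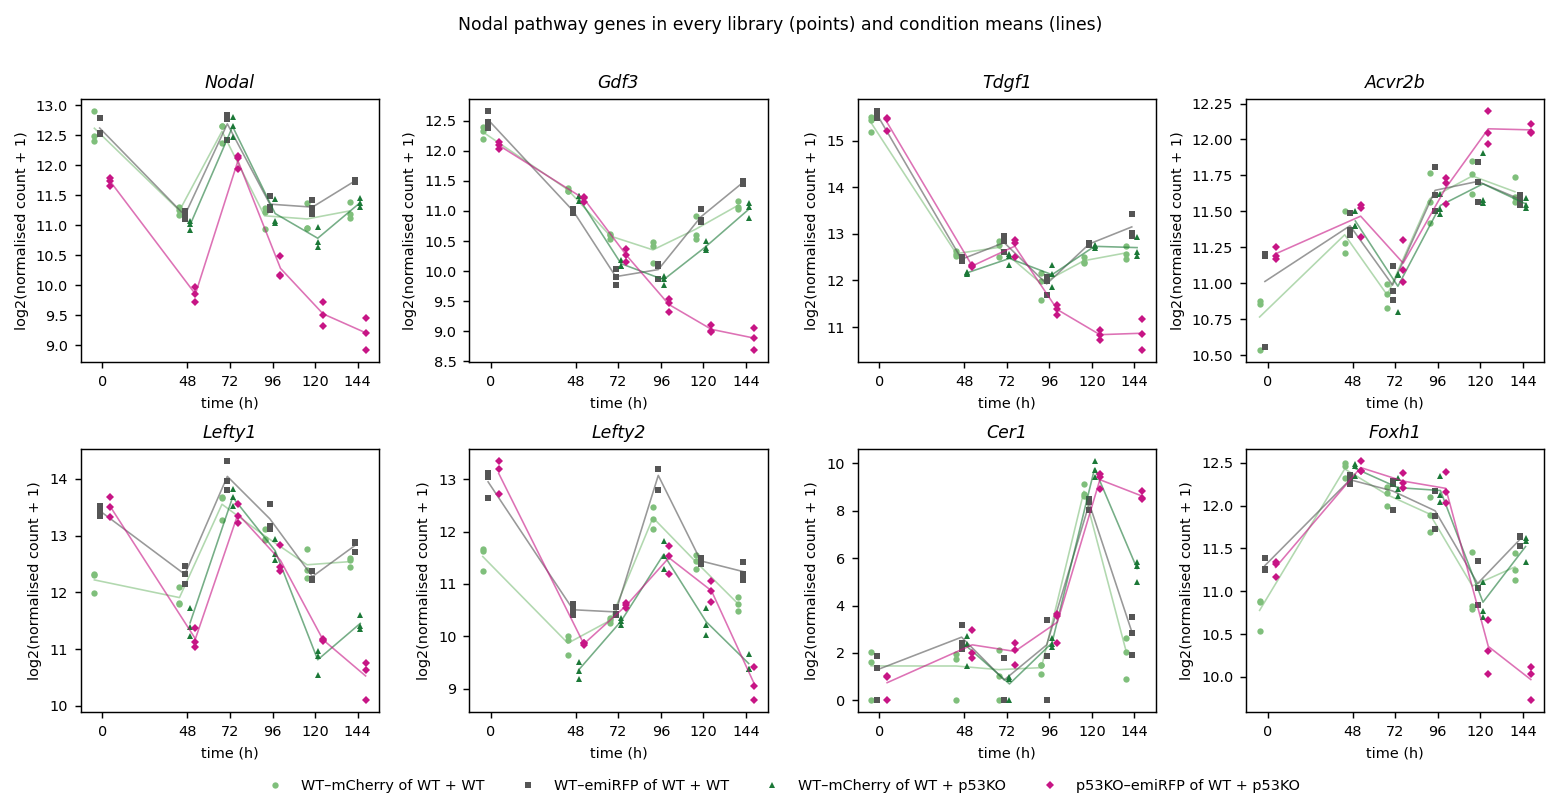
Each panel plots log2(normalized count + 1) of 1 gene, on its own vertical axis, against time in hours, with 1 point per library, lines through condition means of 3 libraries, and the populations set slightly apart along the time axis for legibility. The p53KO–emiRFP line runs below the WT–emiRFP line for Nodal at every time and for Gdf3, Tdgf1, Lefty1, Lefty2 and Foxh1 at 120 and 144 h, and above it for Acvr2b and Cer1 at these 2 times.

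p53KO–emiRFP cells had less Nodal RNA than WT–emiRFP cells at all 6 times. In mES cells the 3 p53KO–emiRFP libraries had 3224, 3531 and 3427 normalized counts and the 3 WT–emiRFP libraries 7082, 5935 and 5878. At 48 h they had 1003, 924 and 841 against 2192, 2286 and 2405, and at 144 h 481, 587 and 700.2 against 3388, 3451 and 3412. At none of the 6 times did the libraries of the 2 groups overlap. The log2 fold change ± SE was −0.89 ± 0.12 at 0 h (edgeR adjusted p = 0.00081), −1.32 ± 0.07 at 48 h (edgeR adjusted p = 9.8e-10) and −0.62 ± 0.11 at 72 h (edgeR adjusted p = 0.00073). It was −1.08 ± 0.12 at 96 h (edgeR adjusted p = 1.8e-05), −1.78 ± 0.13 at 120 h (edgeR adjusted p = 9.5e-08) and −2.54 ± 0.11 at 144 h (edgeR adjusted p = 4.4e-10), so the level at the last time was 5.80-fold lower. The smallest difference, at 72 h, fell at the peak of Nodal in each sorted population, when p53KO–emiRFP cells had 4313 ± 344 and WT–emiRFP cells 6612 ± 973 (SD, n = 3 each). Every one of these 6 calls held under each alternative tried, including without any single replicate.

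Gdf3, the other ligand among the 8 genes, changed sign over time. Its 3 libraries of p53KO–emiRFP mES cells had 4375, 4538 and 4181 normalized counts and those of WT–emiRFP mES cells 6499.5, 5732 and 5337, a log2 fold change of −0.42 ± 0.09 (edgeR adjusted p = 0.014, 0.24 without replicate 2). At 48 h p53KO–emiRFP cells were slightly higher, with 2375, 2418 and 2282 against 2054, 2090.0 and 1997, a difference of 0.20 ± 0.05 on the log2 scale (edgeR adjusted p = 0.0063, 0.085 without replicate 1 and 0.057 without replicate 2). The same direction was seen at 72 h with 0.35 ± 0.08 (edgeR adjusted p = 0.0029, 0.099 without replicate 1). From 96 h the sign was the opposite, with −0.58 ± 0.10 (edgeR adjusted p = 0.00047). At 120 h the p53KO–emiRFP libraries had 549.8, 511 and 508 and the WT–emiRFP libraries 1805, 2085 and 1844, which is 3.66-fold lower (edgeR adjusted p = 3.3e-09). At 144 h they had 411, 474 and 533 and 2904, 2785 and 2874, which is 6.05-fold lower (−2.60 ± 0.09, edgeR adjusted p = 1.1e-10). The groups did not overlap at any time.

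Tdgf1, the co-receptor, differed by at most 0.19 in size on the log2 scale up to 72 h and was far lower in p53KO–emiRFP cells from 120 h. The mES cell libraries had 37818, 45709.5 and 45155 in p53KO–emiRFP and 45785, 49904 and 51169 in WT–emiRFP cells (−0.19, edgeR adjusted p = 0.37). The small difference at 48 h, −0.14 ± 0.04 (edgeR adjusted p = 0.025), did not pass without a low-count filter (0.1), with only the compared groups in the fit (0.059) or without any single replicate (0.085 to 0.14). At 96 h Tdgf1 was 1.47-fold lower (−0.55 ± 0.14, edgeR adjusted p = 0.011, 0.15 without replicate 1). The 120 h libraries had 1809.7, 1972 and 1698 in p53KO–emiRFP cells against 6966, 7019 and 7155 in WT–emiRFP cells, without overlap. The log2 fold change was −1.95 ± 0.06 at 120 h (edgeR adjusted p = 3e-11) and −2.28 ± 0.17 at 144 h (edgeR adjusted p = 4.2e-08).

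Acvr2b, which encodes the ligand-binding type II receptor, was the least variable of the 8 genes and the only one besides Cer1 that was higher in p53KO–emiRFP cells at late times. Up to 96 h its log2 fold changes lay between 0.02 and 0.19 and none passed the threshold, the smallest of their edgeR adjusted p being 0.24. At 120 h the libraries had 4218, 4012 and 4704 in p53KO–emiRFP and 3024, 3331 and 3681 in WT–emiRFP cells, a difference of 0.37 ± 0.10 (edgeR adjusted p = 0.0077, 0.1 without replicate 1). At 144 h they had 4241, 4218 and 4408 and 3136, 2993 and 3076, a difference of 0.48 ± 0.05 (edgeR adjusted p = 2.3e-06). In neither case did the groups overlap.

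The inhibitor Lefty1 did not pass the test in mES cells and was lower in p53KO–emiRFP cells at all 5 later times. In mES cells the log2 fold change was 0.07 ± 0.11 (edgeR adjusted p = 0.81), with overlapping libraries. At 48 h p53KO–emiRFP libraries had 2643, 2229 and 2094 and WT–emiRFP libraries 5659, 5119 and 4550.0, a difference of −1.14 ± 0.12 (edgeR adjusted p = 6.3e-06). It was −0.66 ± 0.13 at 72 h (edgeR adjusted p = 0.0016), −0.73 ± 0.13 at 96 h (edgeR adjusted p = 0.0009) and −1.12 ± 0.12 at 120 h (edgeR adjusted p = 3.8e-06). The largest difference came at 144 h, with 1096, 1595 and 1738 against 7467, 6730.3 and 7606, or 4.93-fold lower (−2.30 ± 0.13, edgeR adjusted p = 4.5e-09). The groups were apart at each of these 5 times, and the 5 calls passed under every alternative.

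Its paralogue Lefty2 followed another course. The fall in p53KO–emiRFP cells was −0.65 ± 0.09 at 48 h (edgeR adjusted p = 0.00012), but at 72 h the value was 0.13 ± 0.06 (edgeR adjusted p = 0.16) with overlapping libraries. At 96 h, when Lefty2 reached its highest level in sorted WT–emiRFP cells, the libraries had 2324, 2962 and 3398 in p53KO–emiRFP and 7072, 9321 and 9430.5 in WT–emiRFP cells. This difference of −1.57 ± 0.16 (edgeR adjusted p = 6.3e-06) was the largest of any member at 96 h. At 120 h it was −0.57 ± 0.12 (edgeR adjusted p = 0.0012). At 144 h the libraries had 438, 529 and 679 against 2324, 2150.0 and 2748, a difference of −2.14 ± 0.15 (edgeR adjusted p = 2.1e-08), and the groups were again apart.

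The balance of the 2 Lefty RNAs shifted with time in every population. Per kb, Lefty1 was 2.13 ± 0.405 times Lefty2 in WT–emiRFP mES cells (SD, n = 3), and 17.9 ± 3.97 times at 72 h. At 96 h the ratio was 1.75 ± 0.300 and at 144 h 4.51 ± 0.352. The p53KO–emiRFP mES cells had 2.00 ± 0.235, which became 10.3 ± 1.33 by 72 h (SD over 3 libraries). It then was 3.18 ± 0.741 after a further day and 4.00 ± 0.416 at the last time. The ratio was highest at 72 h in both. Libraries of the 2 populations were apart at 48 h, 72 h (8.94 to 11.6 against 14.1 to 22.1) and 120 h, each time with the lower ratio in p53KO–emiRFP cells, and at 96 h with the higher one (2.32 to 3.65 against 1.41 to 1.94). They overlapped at 0 and 144 h.

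Cer1, the secreted antagonist, had few counts up to 96 h and was high in WT–emiRFP cells at 120 h alone. It had 0 to 4.41 normalized counts in the p53KO–emiRFP and WT–emiRFP libraries of 0 and 72 h together, and at most 8.08 at 48 h, and it did not pass the low-count filter of these fits. At 96 h it had 11.5, 10.6 and 4.31 in p53KO–emiRFP and 2.67, 9.53 and 0 in WT–emiRFP libraries, with overlap and no call (edgeR adjusted p = 0.25). At 120 h the libraries had 479, 682 and 744 in p53KO–emiRFP and 358, 326 and 263 in WT–emiRFP cells, 2.01-fold higher without overlap (1.01 ± 0.20, edgeR adjusted p = 0.00079). At 144 h p53KO–emiRFP cells still had 449.6, 357 and 368 while WT–emiRFP cells had 2.80, 10.5 and 6.09, which rests on 20 counts in the 3 WT–emiRFP libraries together. The log2 fold change was 5.93 ± 0.33 (edgeR adjusted p = 3.4e-09), or 60.9-fold higher. Both calls passed under every alternative.

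Foxh1, the DNA-binding partner of the Smads, differed late. At 0, 48, 72 and 96 h its log2 fold changes were −0.02, 0.14, 0.12 and 0.26, none of them past the threshold (smallest edgeR adjusted p = 0.091). Those at 48 and 96 h passed with the replicate number as a block, at edgeR adjusted p = 0.00039 and 1.7e-06. At 120 h the p53KO–emiRFP libraries had 1262, 1618 and 1049 and the WT–emiRFP libraries 1829, 2609.9 and 2099, a difference of −0.73 ± 0.20 (edgeR adjusted p = 0.0061, 0.054 without replicate 3). At 144 h they had 847, 1110.2 and 1047 and 3213, 3186 and 2962, a difference of −1.64 ± 0.11 (edgeR adjusted p = 1.5e-08) without overlap.

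Counted together, the genes past the threshold in p53KO–emiRFP against WT–emiRFP cells were 2 of 7 tested at 0 h, where 6.14% of all tested genes were called, 5 of 7 at 48 h (22.1%), 3 of 7 at 72 h (29.1%), 5 of 8 at 96 h (23.3%), 8 of 8 at 120 h (51.0%) and 8 of 8 at 144 h (65.4%). Both calls at 0 h and all 5 at 96 h were lower in p53KO–emiRFP cells. At 48 h 4 were lower and 1 higher, at 72 h 2 and 1, and at 120 and 144 h 6 and 2. The median log2 fold change of the tested members was −0.02, −0.14, 0.12, −0.57, −0.92 and −2.21 from 0 to 144 h, whereas that of all tested genes lay between −0.01 and 0.05. At 120 and 144 h most tested genes were themselves called, so the counts of these 2 times say little about the 8 genes.

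**Figure D2:**
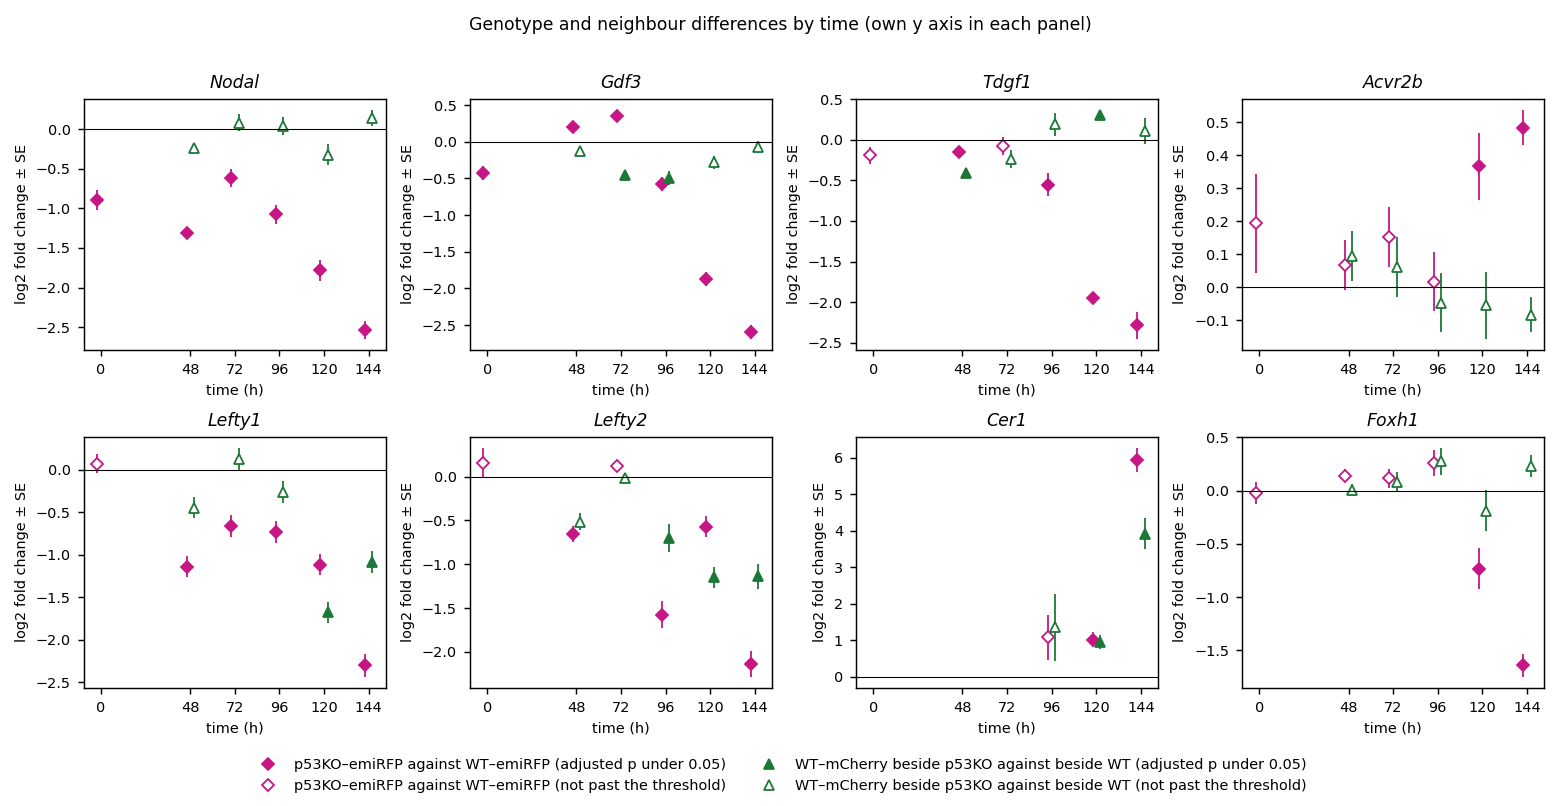
Each panel plots, for 1 gene and on its own vertical axis, the log2 fold change ± SE at each time in hours. Diamonds compare p53KO–emiRFP with WT–emiRFP cells and triangles compare WT–mCherry cells by neighbour, filled where the edgeR adjusted p was under 0.05, with times at which Cer1 was not tested left blank. At 120 and 144 h the diamonds lie below 0 for every gene but Acvr2b and Cer1, and the filled triangles at 144 h are those of Lefty1, Lefty2 and Cer1.

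Marker lists moved at the same times. At 96, 120 and 144 h all 5 naive pluripotency markers were lower in the p53KO–emiRFP population than in its WT–emiRFP counterpart, with summed levels of 9095 to 9838 against 52651 to 60446 at 120 h and 11044 to 16829.7 against 68698 to 80741 at 144 h. All 5 primordial germ cell markers (Prdm1, Prdm14, Tfap2c, Dppa3 and Nanos3) were lower at 120 and 144 h too, with sums of 2318 to 2466 against 9479 to 10402 at 120 h. Of the 8 paraxial mesoderm and somite markers (Tbx6, Msgn1, Mesp2, Ripply2, Meox1, Tcf15, Uncx and Lfng), 0 of 7 tested were higher and 5 lower at 96 h, 5 of 8 were higher at 120 h and 8 at 144 h, with sums of 19919 to 26783 against 3498 to 4820 at 144 h. At 144 h all 4 neural markers were higher as well, with sums of 8472 to 9781 against 2039 to 2628. Of the primed pluripotency markers (Fgf5, Otx2, Pou3f1 and Dnmt3b), 2 of 4 were lower at 120 h and 4 at 144 h, and of the haematoendothelial markers 4 of 5 and 2. The definitive endoderm, node and notochord, and lateral plate lists had calls in both directions, at most 3 lower and 2 higher in each at these 2 times. The part of these cell types in the values of Nodal, Gdf3, Tdgf1 and Cer1 was not tested.

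WT–mCherry cells were compared by their neighbours, beside p53KO–emiRFP or beside WT–emiRFP cells, to ask whether the pathway changed in cells that were themselves WT. Fewer p53KO–emiRFP than WT–emiRFP neighbours were seeded, so the genotype, the clone and the number of the neighbours cannot be told apart. Nodal did not pass the threshold at any of the 5 times. Its libraries at 144 h had 2527, 2812 and 2643 beside p53KO–emiRFP and 2235, 2669 and 2342 beside WT cells, and the log2 fold changes from 48 to 144 h were −0.24 ± 0.07, 0.08 ± 0.11, 0.04 ± 0.12, −0.32 ± 0.13 and 0.14 ± 0.10, with edgeR adjusted p between 0.17 and 0.9. With the replicate number as a block the 48 h value passed (edgeR adjusted p = 0.0025). So did the 120 h value, though not every pair of same-numbered libraries correlated at that time. Acvr2b and Foxh1 were not called either, except Foxh1 with the block at 96 h (0.28, edgeR adjusted p = 7.2e-06) and 144 h (0.24, edgeR adjusted p = 0.024). At 144 h, after subtraction of the emiRFP RNA estimated from H2bc14, Foxh1 (0.34, edgeR adjusted p = 0.026) and Acvr2b (−0.15, edgeR adjusted p = 0.047) passed and Nodal did not (0.26, edgeR adjusted p = 0.057).

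The Lefty RNAs were lower in WT–mCherry cells beside p53KO–emiRFP cells from 96 or 120 h. At 120 h Lefty1 had 1891, 2006 and 1498 normalized counts beside p53KO–emiRFP and 5389, 6971 and 4866 beside WT cells, 3.19-fold lower (−1.67 ± 0.12, edgeR adjusted p = 4.6e-05). At 144 h it had 2709, 2605 and 3102 against 5559, 6239 and 6099.5 (−1.09 ± 0.13, edgeR adjusted p = 0.00012). The groups did not overlap at either time. Lefty2 was 1.63-fold lower at 96 h (−0.70 ± 0.16, edgeR adjusted p = 0.028), a call lost without replicate 1 (0.33) or 2 (0.22). It had 1187, 1494 and 1041 against 2761, 3007 and 2495 at 120 h (−1.15 ± 0.12, edgeR adjusted p = 0.0003) and 663, 662 and 813 against 1435, 1562 and 1719 at 144 h (−1.14 ± 0.14, edgeR adjusted p = 0.00018), again with the groups apart. At these 2 times the calls of both Lefty genes passed under every alternative. Earlier, at 48 h, Lefty1 and Lefty2 had log2 fold changes of −0.45 and −0.52 that did not pass the threshold (edgeR adjusted p = 0.41 and 0.071), and both passed with the replicate number as a block (edgeR adjusted p = 7.4e-08 and 5e-06). Lefty1 also passed at 96 h with the block (−0.27, edgeR adjusted p = 5.8e-05).

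The sorted WT–mCherry cells beside p53KO–emiRFP cells also had more Cer1 at late times. At 120 h they had 693, 845 and 1105 normalized counts, above the 554, 390.5 and 413 of WT–mCherry cells beside WT (0.96 ± 0.19, edgeR adjusted p = 0.011, 0.085 without replicate 2 and 0.12 without replicate 3). These values were also above those of the p53KO–emiRFP cells of the same replicate numbers, of which they were 145%, 124% and 149%. RNA from emiRFP cells would account for 35.2, 19.8 and 48.7 of these counts at the shares estimated from H2bc14, and after its subtraction the difference was 0.98 (edgeR adjusted p = 0.011).

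At 144 h the WT–mCherry libraries had 50.6, 30.6 and 57.0 beside p53KO–emiRFP and 0.885, 3.11 and 5.15 beside WT cells, the latter 10 counts in all (3.92 ± 0.43, edgeR adjusted p = 8.8e-05). They were at 11.3%, 8.58% and 15.5% of the p53KO–emiRFP level of the same replicate number. The estimated share of emiRFP RNA alone would give 75.4, 8.06 and 33.4 normalized counts, more than was measured in replicate 1 and less in replicates 2 and 3. After subtraction the log2 fold change was 2.45 (edgeR adjusted p = 0.04), against 3.92 before. The subtraction left no Cer1 counts in replicate 1, so the higher level then came from replicates 2 and 3 alone. The purity of the sorts was not tested here.

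**Figure D3:**
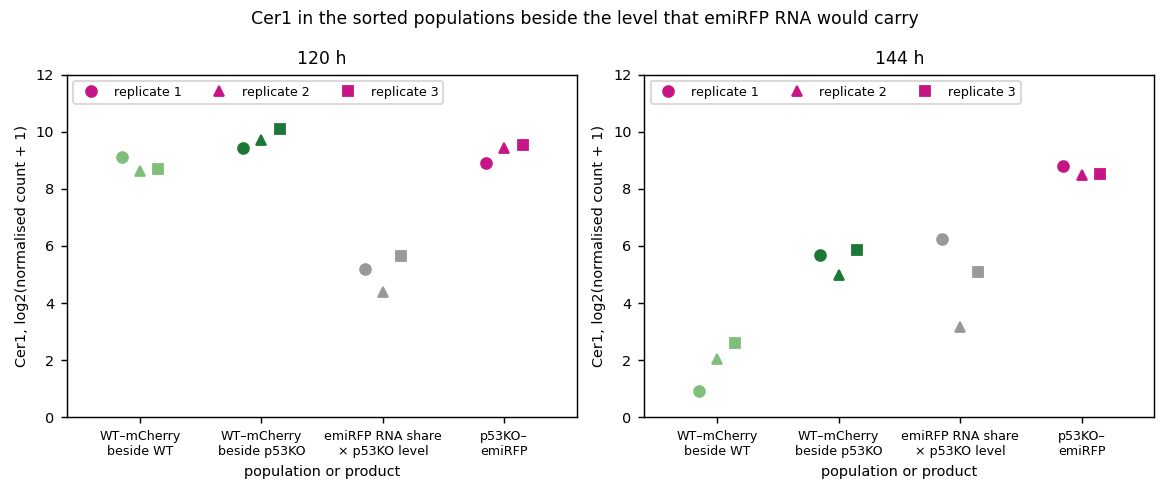
Cer1 as log2(normalized count + 1) at 120 and 144 h, with 1 marker per library or product and the marker shape giving the replicate number, for WT–mCherry cells beside WT and beside p53KO–emiRFP cells, p53KO–emiRFP cells, and, in grey, the share of emiRFP RNA estimated from H2bc14 multiplied by the p53KO–emiRFP level of the same replicate number. On the count scale the measured 693 to 1105 of WT–mCherry cells beside p53KO–emiRFP cells lie above the estimated 19.8 to 48.7 at 120 h, and at 144 h the measured 30.6 to 57.0 overlap the estimated 8.06 to 75.4.

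Gdf3 and Tdgf1 moved little in WT–mCherry cells. Gdf3 was lower beside p53KO–emiRFP cells at 72 h, with 1088, 1169 and 1089 against 1487, 1544 and 1567 (−0.46 ± 0.08, edgeR adjusted p = 0.018), and at 96 h (−0.49 ± 0.09, edgeR adjusted p = 0.015). The 72 h call was lost without each single replicate (0.08 to 0.37), and the 96 h call without replicate 1 (0.38) or 2 (0.13). Tdgf1 was lower at 48 h, with 4579, 4668 and 4501 against 6099.8, 6299 and 5911 (−0.41 ± 0.04, edgeR adjusted p = 0.00041, 0.3 without replicate 1 and 0.18 without replicate 2), and higher at 120 h (0.31 ± 0.06, edgeR adjusted p = 0.0067, 0.23 without replicate 1 and 0.07 without replicate 3). With the replicate number as a block, Gdf3 at 48 h (−0.13, edgeR adjusted p = 0.02) and Tdgf1 at 72 h (−0.23, edgeR adjusted p = 0.0043) passed as well. At 144 h neither gene was called, with −0.07 ± 0.08 for Gdf3 (edgeR adjusted p = 0.6) and 0.11 ± 0.16 for Tdgf1 (edgeR adjusted p = 0.65).

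Of the tested members, 1 of 7 was called by neighbour at 48 h, where 0.0736% of all tested genes were, 1 of 7 at 72 h (0.559%), 2 of 8 at 96 h (3.92%), 4 of 8 at 120 h (5.94%) and 3 of 8 at 144 h (25.6%). The calls were lower in 1, 1, 2, 2 and 2 cases. With the replicate number as a block the counts were 5 at 48 h, 2 at 72 h and 4 at 96 h. In the same comparison 5 of the 8 paraxial mesoderm markers were higher at 120 h, with summed levels of 18058 to 23129 beside p53KO–emiRFP and 12708 to 16835 beside WT cells. At 144 h 4 were higher, but the sums overlapped, at 4412 to 8895 against 6090 to 8285. Their part in the Lefty and Cer1 values was not tested.

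The genotype difference of the emiRFP cells was tested against the neighbour difference of the WT–mCherry cells within each time, a test that uses all 4 populations. For Nodal the genotype difference was the lower one at every time, by −1.08 ± 0.09 at 48 h (edgeR adjusted p = 9.4e-07), −0.70 ± 0.16 at 72 h (edgeR adjusted p = 0.0054, 0.069 without replicate 1 and 0.086 without replicate 2), −1.11 ± 0.17 at 96 h (edgeR adjusted p = 0.0005), −1.46 ± 0.18 at 120 h (edgeR adjusted p = 4.1e-05) and −2.68 ± 0.15 at 144 h (edgeR adjusted p = 8.8e-09). Nodal by neighbour was itself not called at any of these times without the replicate block, and passed with it at 48 and 120 h. For Gdf3 and Tdgf1 the sign changed with time. The genotype difference was the higher one at 48 h, by 0.34 for Gdf3 (edgeR adjusted p = 0.0036, 0.092 without replicate 1) and 0.27 for Tdgf1 (edgeR adjusted p = 0.0092, 0.14 without replicate 1 and 0.093 without replicate 2), and for Gdf3 at 72 h (0.81, edgeR adjusted p = 7.5e-05). Tdgf1 had the lower one at 96 h (−0.74, edgeR adjusted p = 0.024, 0.15 without replicate 1 and 0.066 without replicate 2). In both genes it was lower at 120 h, by −1.59 (edgeR adjusted p = 1.2e-06) and −2.26 (edgeR adjusted p = 6.6e-10), and at 144 h, by −2.53 (edgeR adjusted p = 3.8e-09) and −2.40 (edgeR adjusted p = 7.9e-07).

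Up to 96 h the genotype difference was the lower one for Lefty1 at 48 h (−0.69, edgeR adjusted p = 0.016, 0.13 without replicate 2) and 72 h (−0.79, edgeR adjusted p = 0.0078) and for Lefty2 at 96 h (−0.87, edgeR adjusted p = 0.018, 0.17 without replicate 2). The Lefty genes gave another picture at 120 h. There the fall was larger in the WT–mCherry cells than in the p53KO–emiRFP cells, with differences of 0.56 ± 0.17 for Lefty1 (edgeR adjusted p = 0.022, 0.16 without replicate 1) and 0.58 ± 0.17 for Lefty2 (edgeR adjusted p = 0.018, 0.12 without replicate 1 and 0.063 without replicate 3). At 144 h the sign was the opposite, −1.21 ± 0.18 for Lefty1 (edgeR adjusted p = 4.8e-05). Lefty2 had −2.14 by genotype against −1.14 by neighbour at that time, and the 2 differed (edgeR adjusted p = 0.00063). For Cer1 the test of the difference did not pass at 120 h (0.05 ± 0.28, edgeR adjusted p = 0.91), and at 144 h that of the genotype was larger (2.01 ± 0.76, edgeR adjusted p = 0.034, 0.054 without replicate 2 and 0.21 without replicate 3). Acvr2b had the higher genotype difference at 120 h (0.42, edgeR adjusted p = 0.036, 0.056 with TMM scaling, 0.33 without replicate 1 and 0.056 without replicate 2) and 144 h (0.57, edgeR adjusted p = 1.8e-05), and Foxh1 the lower one at 144 h (−1.88, edgeR adjusted p = 1.5e-07). With the replicate number as a block Foxh1 at 48 h (0.14, edgeR adjusted p = 0.015), Tdgf1 at 72 h (0.16, edgeR adjusted p = 0.035) and Lefty1 at 96 h (−0.46, edgeR adjusted p = 1.6e-06) passed too. In all, 4 of 7 members passed this test at 48 h (10.9% of all tested genes), 3 of 7 at 72 h (20.5%), 3 of 8 at 96 h (13.0%), 6 of 8 at 120 h (33.1%) and 8 of 8 at 144 h (62.1%).

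The 2 WT clones of WT + WT gastruloids differed in some of the genes, which sets a scale for differences between clones of one genotype. In mES cells WT–emiRFP cultures had 6416, 8861 and 8439 normalized counts of Lefty2 and WT–mCherry cultures 2419.5, 3233 and 3166, a log2 fold change of 1.43 ± 0.17 (edgeR adjusted p = 0.00038). Lefty1 differed by 1.22 ± 0.11 (edgeR adjusted p = 6.4e-05), without overlap, and Foxh1 by 0.52 ± 0.11 (edgeR adjusted p = 0.0083, 0.13 without replicate 2 and 0.061 without replicate 3). Both Lefty genes were thus over 2-fold higher in one WT clone than in the other before any aggregation. In sorted cells Lefty2 was called at 48 h (0.64), 96 h (0.81, edgeR adjusted p = 0.27 without replicate 2) and 144 h (0.62), each time higher in WT–emiRFP cells. Lefty1 was also higher in WT–emiRFP cells at 48 h (0.41, edgeR adjusted p = 0.045) and 72 h (0.49, edgeR adjusted p = 0.034), and each of these calls was lost without either of 2 replicates (0.077 to 0.3). Tdgf1 was higher at 120 h (0.36, edgeR adjusted p = 0.0079, 0.44 without replicate 1 and 0.16 without replicate 3) and 144 h (0.56, edgeR adjusted p = 0.021, 0.098 without replicate 2), and Foxh1 at 144 h (0.32, edgeR adjusted p = 0.036, 0.17 without replicate 1 and 0.13 without replicate 3). Nodal was called at 144 h alone, with 3388, 3451 and 3412 in WT–emiRFP and 2235, 2669 and 2342 in WT–mCherry cells (0.50 ± 0.10, edgeR adjusted p = 0.003).

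Gdf3 was lower in WT–emiRFP than in WT–mCherry cells at 48 h (−0.35 ± 0.05, edgeR adjusted p = 0.00021) and 72 h (−0.67 ± 0.08, edgeR adjusted p = 0.0001) and higher at 144 h (0.39 ± 0.08, edgeR adjusted p = 0.0043). The genotype difference of Gdf3 at 72 h was 0.35. The count of called members was 3 of 7 at 0 h (11.1% of all tested genes), 3 of 7 at 48 h (8.90%), 2 of 7 at 72 h (7.64%), 1 of 8 at 96 h (2.15%), 1 of 8 at 120 h (1.22%) and 5 of 8 at 144 h (23.8%). With the replicate number as a block it was 5 at 48 h, 4 at 96 h and 3 at 120 h, through Tdgf1 and Foxh1 at 48 h, Lefty1, Gdf3 and Nodal at 96 h, and Gdf3 and Nodal at 120 h, each by at most 0.32 in size on the log2 scale, and Lefty1 passed at 144 h (0.29, edgeR adjusted p = 0.028). All 5 calls of 144 h were higher in WT–emiRFP cells, where the naive pluripotency markers summed to 68698 to 80741 against 48699 to 54288 in WT–mCherry cells, and the part of these cells in the 5 values was not tested. The WT–emiRFP libraries enter both this comparison and that by genotype, and the WT–mCherry libraries of WT + WT both this one and that by neighbour, so these results are not independent of each other.

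Over time in the WT–emiRFP clone, mES cells entering gastruloids lost most of their Tdgf1 and much of their Gdf3, Nodal and Lefty RNA. From 0 to 48 h the log2 changes were −3.12 ± 0.14 for Tdgf1 (edgeR adjusted p = 8.1e-28), −2.44 ± 0.15 for Lefty2 (edgeR adjusted p = 1.4e-20), −1.52 ± 0.08 for Gdf3, −1.46 ± 0.13 for Nodal and −1.12 ± 0.15 for Lefty1. Foxh1 rose over the same interval by 1.00 ± 0.14 (edgeR adjusted p = 7.4e-09). Between 48 and 72 h, the interval of the Wnt agonist, Nodal rose by 1.53 ± 0.13 (edgeR adjusted p = 2.2e-15) and Lefty1 by 1.73 ± 0.15 (edgeR adjusted p = 8.7e-15), while Lefty2 did not pass (−0.04 ± 0.15, edgeR adjusted p = 0.86) and Gdf3 fell further (−1.09 ± 0.09). Lefty2 rose a day later, from 72 to 96 h, by 2.61 ± 0.15 (edgeR adjusted p = 5.1e-21), as Nodal changed by −1.34 ± 0.13 (edgeR adjusted p = 2e-13). Among the sorted cells of this clone, leaving mES cells aside, the 2 Lefty genes thus peaked at different times.

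From 96 to 120 h in WT–emiRFP cells Cer1 rose by 6.21 ± 0.37 (edgeR adjusted p = 6e-21). Its starting level rests on 13 counts in the 3 libraries of 96 h, 10 of them in replicate 2, and without that replicate the value was 7.64. Gdf3 and Tdgf1 rose by 0.87 ± 0.09 and 0.86 ± 0.13. The changes of Lefty2, Lefty1 and Foxh1 were −1.63 ± 0.15, −1.02 ± 0.15 and −0.85 ± 0.14, all of them called. From 120 to 144 h Cer1 changed by −5.62 ± 0.34 (edgeR adjusted p = 1.9e-19), back to few counts, and Gdf3 rose again by 0.58 ± 0.08 (edgeR adjusted p = 1.4e-07). Rises of Lefty1, Foxh1, Nodal and Tdgf1 between 0.37 and 0.55 in that interval each lost their call without at least 1 replicate. Members past the threshold were 7, 6, 5, 6 and 6 of 8 in the 5 successive intervals, where 60.3%, 49.6%, 41.6%, 42.3% and 33.9% of all tested genes were called. The 6 from 48 to 72 h include Cer1, which had 14 counts in the 3 libraries of 48 h and 2 in those of 72 h and lost its call without replicate 2 (0.14) or 3 (0.28).

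In p53KO–emiRFP cells Nodal fell from 0 to 48 h, rose to 72 h and fell again. It changed by −1.88 ± 0.13, 2.23 ± 0.13 and −1.80 ± 0.13 in the first 3 intervals (edgeR adjusted p = 1.6e-18, 6.5e-21 and 1.5e-17) and then by −0.76 ± 0.13 from 96 to 120 h (edgeR adjusted p = 5.7e-06). Gdf3 did not recover after 72 h, with −0.82 ± 0.09 and −0.42 ± 0.09 in the next 2 intervals (edgeR adjusted p = 1.6e-11 and 0.00019), and Tdgf1 changed by −1.36 ± 0.13 and −0.54 ± 0.13 (edgeR adjusted p = 3e-13 and 0.00069). Cer1 rose from 96 to 120 h by 6.15 ± 0.32 (edgeR adjusted p = 5.9e-23, from 30 counts in the 3 libraries of 96 h), and from 120 to 144 h changed by −0.70 ± 0.21 (edgeR adjusted p = 0.01, 0.14 without replicate 2 and 0.13 without replicate 3). Members past the threshold were 7, 6, 6, 8 and 4 of 8, beside 59.5%, 46.4%, 44.6%, 35.0% and 22.7% of all tested genes.

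Whether the 2 clones changed by different amounts was tested as an interaction. From 96 to 120 h Gdf3 and Tdgf1, which rose in WT–emiRFP cells, fell in p53KO–emiRFP cells, and the changes differed by −1.29 ± 0.12 (edgeR adjusted p = 2.5e-12) and −1.40 ± 0.18 (edgeR adjusted p = 1.2e-08). From 120 to 144 h the change of Cer1 differed by 4.92 ± 0.42 (edgeR adjusted p = 3.6e-13), that of Lefty2 by −1.57 ± 0.22 (edgeR adjusted p = 1.2e-07) and that of Lefty1 by −1.19 ± 0.21 (edgeR adjusted p = 2.4e-05). The rise of Lefty2 from 72 to 96 h was smaller in p53KO–emiRFP cells, and the changes differed by −1.70 ± 0.21 (edgeR adjusted p = 4.8e-08). Members that passed were 3, 2, 2, 5 and 6 of 8 in the 5 intervals, where 5.99%, 1.76%, 11.0%, 30.8% and 16.9% of all tested genes did. With the replicate number as a block, Acvr2b from 96 to 120 h (edgeR adjusted p = 0.019) also passed.

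Beyond the 8 genes, 29 others of the pathway were read from the same fits: ligands, the co-receptor Cfc1, receptors, extracellular inhibitors, convertases, Smads, nuclear regulators and targets. Inhba and Acvr1c had too few counts to be tested at any time. Gdf1 had no counts in any library, and whether its reads could be assigned to it was not tested. Of the possible partners of Nodal only Gdf3 was thus measured here. In p53KO–emiRFP against WT–emiRFP cells, 3 of 25 tested were called at 0 h (6.14% of all tested genes), 9 of 24 at 48 h (22.1%), 9 of 25 at 72 h (29.1%), 12 of 26 at 96 h (23.3%), 17 of 26 at 120 h (51.0%) and 20 of 26 at 144 h (65.4%). Those called lower were 3, 7, 6, 7, 8 and 11. The median log2 fold change of the list lay between −0.09 and 0.07 at each of the 6 times, near that of all genes.

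The convertase Pcsk6, which cleaves the Nodal precursor, and Smad7 and Pmepa1, a pair of feedback inhibitors induced by the TGFβ branch, were each lower in p53KO–emiRFP cells at 5 of 6 times. At 0 h they were the 3 called genes of the list, with −0.57, −0.49 and −0.37. The other convertase of the list, Furin, was lower at 48 h (−0.25) and higher at 96 h (0.35), 120 h (0.72) and 144 h (0.37). The inhibitor Bambi was higher at 120 h (0.56) and 144 h (0.45). The receptor Acvr1b, Smad2 and the repressor Tgif2 were called at none of the 6 times, whereas Smad3 and Tgif1 were called at some. Smad3 was lower at 48 h (−0.46), 72 h (−0.31) and 96 h (−0.48) and higher at 120 h (0.41) and 144 h (1.17). At 120 and 144 h Smad4, the partner of both Smads, was higher (0.28 and 0.50) and Tgif1 lower (−0.21 and −0.53), and the type II receptor Acvr2a was higher at 144 h (1.04). Inhbb, which encodes a subunit of activin, was lower at 120 h (−2.91) and 144 h (−3.31), and the T-box factor Eomes, a target in the streak, was higher at 48 h (0.49) and 72 h (0.87) but lower at 96 h (−0.34), 120 h (−2.73) and 144 h (−2.21). Among other targets Mixl1, a homeobox gene of the primitive streak, was higher at 96 h (1.01), 120 h (3.21) and 144 h (1.64), and Foxa2 at 48 h (0.83), 72 h (0.39) and 96 h (1.48). Lhx1 was lower at 96 h (−1.04) and higher at 120 h (1.66) and 144 h (2.32). The co-receptor Cfc1 was higher at 96 h (1.29) and lower at 120 h (−2.04) and 144 h (−1.94), on few counts. At 96 h the p53KO–emiRFP libraries together had 63 counts, 31 of them in replicate 2, and the WT–emiRFP libraries 24. At 120 h they had 17 and 71.

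**Figure D4:**
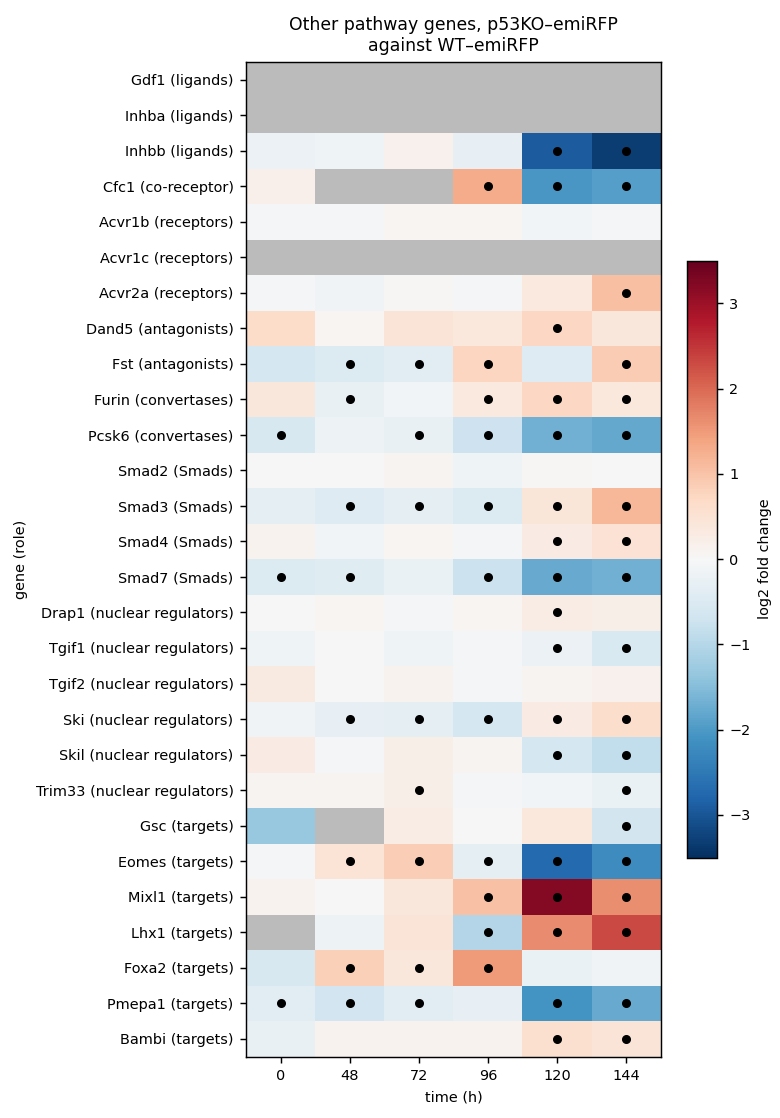
Log2 fold changes (colour) of p53KO–emiRFP against WT–emiRFP cells for other genes of the pathway, each with its role, at 0 to 144 h on the horizontal axis. Dots mark values past the edgeR adjusted threshold of 0.05, and grey cells were not tested. Inhbb is the lowest at 144 h (−3.31) and Mixl1 the highest at 120 h (3.21).

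In WT–mCherry cells compared by neighbour, 0 of 24 genes of the list were called by edgeR at 48 h and 0 of 25 at 72 h. At an unadjusted p under 0.05 these were 1 and 2, and DESeq2 called 1 and 0. There were 2 of 26 at 96 h (Fst 0.80 and Pcsk6 −0.27), where 3.92% of all tested genes were called. At 120 h there were 7 of 26 beside 5.94% of all tested genes, and at 144 h 7 of 26 beside 25.6%, so that the share at 144 h, 26.9%, was near that of all genes. At 120 h Inhbb (−1.66), Eomes (−0.88) and Pmepa1 (−0.77) were lower and Mixl1 (1.04) higher beside p53KO–emiRFP cells. At 144 h the activin inhibitor Fst (−1.53) was lower, and Lhx1 (1.35) and Cfc1 (0.87) higher.

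Across the 23 condition means, the gene whose log2 level followed that of a member most closely, among 14077 with a mean of at least 50 normalized counts, was Gigyf2 for Nodal (r = 0.92), Gm13147 for Gdf3 (0.99), Unc119 for Acvr2b (0.97), Tango2 for Lefty1 (0.91), Itpk1 for Lefty2 (0.90), Ripply2 for Cer1 (0.95) and Kifc2 for Foxh1 (0.95). Ripply2 is itself a gene of forming somites. For Tdgf1 it was Tdgf1-ps1 (r = 1.00), with which it shares sequence, followed by Acot9 (0.97). The next in order were Ass1 and Apod for Nodal (0.92 each) and Dppa2 (0.99) and Hspbap1 (0.98) for Gdf3. Among the members themselves the highest values were 0.86 for Gdf3 with Tdgf1 and 0.79 for Nodal with Lefty1, and the lowest was −0.87 for Nodal with Acvr2b. Lefty1 and Lefty2 had r = 0.57. These correlations describe 23 points that share clones, experiments and sequencing, and carry no test.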

How the data were processed

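Bulk RNA sequencing of poly(A) RNA covered 69 libraries of 23 conditions with 3 replicates each. The authors trimmed the reads with Trim Galore 0.6.7, aligned them with STAR 2.7.11b to GRCm38.p6 and counted uniquely mapped reads per gene. The deposited values are raw counts, with no normalization. The library kit was stranded, and which strand column was counted is not given in the sources used here. Of the 55367 symbols, 96.4% were found in Gencode release 21 on GRCm38, which gave positions and lengths, and sequences for promoters came from RefSeq.

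Normalized counts are counts divided by median-of-ratios size factors over all libraries. Populations of one time were compared in one fit of all its libraries, and changes over time in one fit of 69 libraries, with the quasi-likelihood test of edgeR 4.0.16 (R 4.3.3, limma 3.58.1), a low-count filter by group (filterByExpr) and Benjamini-Hochberg adjustment over all tested genes, at a threshold of 0.05. Standard errors are the log2 fold change divided by the root of the F statistic. Alternatives were TMM scaling, DESeq2 1.42.0, a fit of the compared groups alone, a block by replicate number, no low-count filter, each replicate left out, and subtraction of emiRFP RNA estimated from H2bc14 for WT–mCherry cells. The genes named are the 8 members, up to 4 other pathway genes per comparison with the largest called change, and up to 3 genes most alike to each member by Pearson correlation of log2(normalized count + 1). Acvr1b, Acvr2a, Bambi, Furin, Smad2, Smad3, Smad4, Tgif1 and Tgif2 were named after their values were seen. 1 gene of the pathway list enters the list's counts and is not reported here by itself. The members, the pathway list and the marker lists were chosen with earlier results of these data known.

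Replicate numbers come from the labels, and the study's methods describe separate experiments. Libraries with the same number deviated from their groups' means with correlations of 0.116 to 0.491 in the 6 comparisons by genotype. They were over 0.1 in every pair in 4 of 5 comparisons by neighbour, 4 of 6 between clones, 3 of 5 over time in WT–emiRFP and 3 of 5 in p53KO–emiRFP cells. Where the replicates are paired in this way, block values are given beside results they change, and elsewhere in the closing section. Between replicates at most 1.35% of 14106 genes had equal counts. The fits were tested on simulated counts with known changes.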

Additional observations from a re-analysis of the deposited data

Results flagged for a closer look

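In 18 cases the change of a member between consecutive times differed between p53KO–emiRFP and WT–emiRFP cells by the interaction term of the edgeR fit of all libraries. Values are the change in p53KO–emiRFP minus that in WT–emiRFP cells on the log2 scale ± SE, with the edgeR adjusted p.

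From 0 to 48 h Lefty1 (−1.21 ± 0.21, 7e-05) and Lefty2 (−0.81 ± 0.21, 0.012) fell more in p53KO–emiRFP cells, and Gdf3 fell less (0.63 ± 0.12, 0.00027). The Lefty2 call was lost without replicate 2 (0.15) or 3 (0.09). From 48 to 72 h the differences of Nodal (0.70 ± 0.18, 0.024) and Lefty2 (0.78 ± 0.22, 0.043) were each lost without any one replicate. Nodal rose more in p53KO–emiRFP cells, to a level still below that of WT–emiRFP cells. From 72 to 96 h Lefty2 (−1.70 ± 0.21, 4.8e-08) rose less, and Gdf3 (−0.93 ± 0.12, 2e-07) fell in p53KO–emiRFP cells (−0.82 ± 0.09) and did not pass in WT–emiRFP cells (0.12 ± 0.09).

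From 96 to 120 h the lower changes in p53KO–emiRFP cells were those of Tdgf1 (−1.40 ± 0.18, 1.2e-08), Gdf3 (−1.29 ± 0.12, 2.5e-12), Foxh1 (−0.99 ± 0.20, 5.1e-05) and Nodal (−0.71 ± 0.18, 0.0018), and Lefty2 fell less (1.00 ± 0.21, 0.00011). From 120 to 144 h Lefty2 (−1.57 ± 0.22, 1.2e-07), Lefty1 (−1.19 ± 0.21, 2.4e-05), Foxh1 (−0.91 ± 0.20, 0.00056), Nodal (−0.76 ± 0.19, 0.0021) and Gdf3 (−0.73 ± 0.12, 1.4e-05) had lower changes in p53KO–emiRFP cells, and Cer1 a higher one (4.92 ± 0.42, 3.6e-13). Without replicate 1 those of Foxh1 (0.15) and Nodal (0.058) in this last interval did not pass. Successive intervals share the libraries of the time between them, so their differences are not independent.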

How the results depend on the processing

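No called member result changed sign under any alternative. Of 160 called member results among 286 tested, 158 passed with TMM, 159 with no low-count filter, 160 with the replicate block, 132 of 135 with only the compared groups, 160 with DESeq2, 129 without replicate 1, 129 without replicate 2, 141 without replicate 3, and 11 of 11 after subtraction of emiRFP RNA. In every alternative 112 passed. Cer1 by neighbour at 144 h passed after the subtraction with no counts left in replicate 1.

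The number of members called moved as follows. By neighbour at 48 h it was 1, and 3 with no filter, 5 with the replicate block and 2 with DESeq2. At 72 h it was 1, and 2 with no filter or the block. At 96 h it was 2, and 5 with no filter and 4 with the block. At 144 h it was 3, and 5 after subtraction. Between WT clones the block gave 5 in place of 3 at 48 h, 4 in place of 1 at 96 h and 3 in place of 1 at 120 h. No filter gave 3 at 96 h and 2 at 120 h, DESeq2 gave 2 at 96 h, and only the compared groups gave 1 in place of 2 at 72 h. For the interaction from 72 to 96 h both no filter and the block gave 4 in place of 2. With a replicate left out the ranges were 1 to 2 by genotype at 0 h and 3 to 4 at 48 h. By neighbour they were 0 to 1 at 48 h, 0 to 0 at 72 h, 0 to 2 at 96 h and 2 to 3 at 120 h. Between clones they were 1 to 2 at 72 h, 0 to 1 at 96 h and 0 to 1 at 120 h. For p53KO–emiRFP from 120 to 144 h the range was 2 to 4, for the interaction from 48 to 72 h 0 to 0, and for genotype minus neighbour 2 to 4 at 48 h and 3 to 6 at 120 h. The cause was not tested, except that fewer libraries leave less power.

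Counts over all genes moved by over 1.5 times in 5 of 37 comparisons with DESeq2, 6 with no filter, 8 with only the compared groups, 17 with the block, and 22, 22 and 14 without replicate 1, 2 and 3. Where not every pair of same-numbered libraries correlated, the block values that newly passed were Gdf3 and Nodal by neighbour at 120 h (−0.28 and −0.32), Foxh1 for genotype minus neighbour at 120 h (−0.57, edgeR adjusted p = 0.00021), Foxh1 in WT–emiRFP cells from 72 to 96 h (−0.24, edgeR adjusted p = 0.028), and Tdgf1 and Nodal for the interaction over that interval (edgeR adjusted p = 0.042 and 0.032). Cer1 rests on few counts before 120 h, which leaves the size of its changes from those times uncertain.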
